A study of Homo sapiens with 10 samples.

Results

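The genes described here encode the proteins of the cytosolic ribosome, the particle that translates every nuclear mRNA. They were chosen by name, as protein-coding genes on chromosomes 1 to 22 whose symbol is RPL or RPS followed by a number, then optionally the letter A or L and optionally a further number, together with RPSA, RPLP0, RPLP1 and RPLP2. The rule found 80 of 19229 protein-coding genes in the GENCODE annotation, 49 for the large subunit and 31 for the small subunit, and 7 of the 80 are paralogues that resemble another ribosomal protein gene. The study profiled MDAMB231, a triple-negative breast cancer cell line without estrogen receptor, progesterone receptor or HER2, grown untreated in DMEM with 5% FBS. Histone marks were mapped by ChIP-seq, in which an antibody recovers DNA bound to a modified histone, with 2 samples each for H3K4me1, H3K4me3 and H3K27Ac and 1 input sample. Open chromatin was mapped by FAIRE-seq, which recovers DNA that is poorly crosslinked to nucleosomes, with 2 samples and 1 input sample. The replicates of each assay were combined into a single list of peaks, so no replicate error can be given for any gene, and genes are not replicates of each other.

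H3K4me3 marks active start sites, H3K27Ac marks active promoters and enhancers, and H3K4me1 is the typical mark of enhancers. Ribosomal protein genes are among the most strongly transcribed genes of growing cells and must supply their products in equal amounts. Their mRNAs begin with a C followed by a run of pyrimidines, the terminal oligopyrimidine (TOP) sequence, through which mTOR signalling controls their translation.

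The identity of the cells was checked first at the promoters of marker genes. A promoter here is any annotated start site of a gene widened by 1 kb on each side, and a peak was counted when it shared at least 1 base with it. All 5 mesenchymal markers, VIM, CD44, ZEB1, AXL and CAV1, had H3K27Ac peaks. Among 8 luminal and epithelial genes, H3K27Ac peaks were found at 4, namely CDH1, EPCAM, ERBB2 and GATA3, and not at ESR1, PGR, FOXA1 or ESRP1. The CDH1 and GATA3 peaks lay at other annotated starts. The GATA3 peak was 7648 bp from the canonical start. The counted CDH1 peak, at 68856241 to 68858720 of chromosome 16, was far from the canonical start at 68771195. A different H3K27Ac peak was the nearest to that start, at 28347 bp. H3K4me3 peaks were found at all of the 8 but CDH1, and FOXA1 also had a FAIRE peak. The blood genes PTPRC and CD3E and the endothelial gene CDH5 had no peak of any list, and PECAM1 was not analysed here.

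The start sites of the ribosomal stalk genes show the TOP sequence that most of the family shares. RPLP0, RPLP1 and RPLP2 encode the proteins of the stalk, which brings elongation factors to the ribosome. The sequences below cover 45 bases before the canonical start and the first 15 transcribed bases, read on the gene strand of GRCh37, and capitals mark the unbroken run of C and T that begins at the start. The stretches are RPLP0 at chr12:120638900-120638959 (minus strand), RPLP1 at chr15:69745112-69745171 (plus strand) and RPLP2 at chr11:809922-809981 (plus strand).
RPLP0: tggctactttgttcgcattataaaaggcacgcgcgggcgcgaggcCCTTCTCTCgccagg
RPLP1: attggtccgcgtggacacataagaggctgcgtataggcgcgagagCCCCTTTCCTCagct
RPLP2: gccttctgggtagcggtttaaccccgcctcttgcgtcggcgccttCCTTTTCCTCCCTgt

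The start sites of 5 further genes are shown because their promoters recur in the results. RPL24 lies at a bridge between the subunits, RPL3 borders the peptidyl transferase centre, RPS6 is the substrate of the S6 kinases, RPS14 is the gene tied to anaemia in the myelodysplastic syndrome with loss of the long arm of chromosome 5, and RPS19 is the gene most often mutated in Diamond-Blackfan anaemia. The stretches are RPL24 at chr3:101405548-101405607 (minus strand), RPL3 at chr22:39715614-39715673 (minus strand), RPS6 at chr9:19380220-19380279 (minus strand), RPS14 at chr5:149829288-149829347 (minus strand) and RPS19 at chr19:42364280-42364339 (plus strand), and RPL3 differs from the others in that its run of pyrimidines has only 4 bases.
RPL24: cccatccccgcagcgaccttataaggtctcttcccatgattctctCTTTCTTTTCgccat
RPL3: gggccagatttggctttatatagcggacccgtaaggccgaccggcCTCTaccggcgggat
RPS6: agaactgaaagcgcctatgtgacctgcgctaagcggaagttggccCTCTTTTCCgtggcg
RPS14: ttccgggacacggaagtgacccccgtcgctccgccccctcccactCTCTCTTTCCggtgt
RPS19: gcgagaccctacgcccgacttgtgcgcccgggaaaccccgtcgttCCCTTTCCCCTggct

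A TOP start, defined as a C at the canonical start followed by 4 pyrimidines, was found in 56 of the 80 genes (70%) and in 4.26% of the 19149 other protein-coding genes. The first transcribed base was a C in 60 of the 80 genes and in 10.5% of the others. The share was 32 of 49 for the large subunit and 24 of 31 for the small subunit. When any annotated start site was allowed, 69 of the 80 genes had a TOP start, against 16.1% of the others. Those without one at any annotated start included RPL3, RPL10A, RPL23A, RPL27 and RPS28 and the paralogues RPL3L, RPL7L1, RPL10L, RPL26L1 and RPS27L, a group named after its values were seen. The longest run of pyrimidines, 16 bases, belonged to RPL7A, and RPS24 had 14.

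Short motifs were searched on both strands from 200 bases before to 50 bases after the canonical start, and a match is a description of the sequence only. TCTCGCGA, known as M8, was present in 13 of the 80 genes (16.2%) and in 1.48% of the other genes. It began within 100 bases before the start in 12 of the 13, among them RPS6, RPS19, RPL7A and RPL12. The ETS letters CCGGAAG were present in 25 genes (31.2%) against 13.1% of the others, and 6 of the 25 (RPL6, RPL8, RPL29, RPS14, RPS18 and RPS21) held 2 copies. The YY1 letters AAGATGGC were present in 11 genes (13.8%) against 3.75% of the others. They began within 30 bases after the start in 10 of the 80 genes (12.5%), as in RPL24, RPL13A and RPS3, and in 2.38% of the other genes. Among the other genes with an H3K4me3 peak, M8 was present in 2.12%, the ETS letters in 18.1% and the YY1 letters in 5.19%. The ETS and YY1 letters were not particular to the family. In the 78 mitochondrial ribosomal protein genes they were more frequent than in the members, at 38.5% and 25.6%, whereas M8 was present in 2.56%.

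The frequency of the remaining motifs was nearer to that of all other genes. The SP1 letters GGGCGG were present in 55% of the members and 59.0% of the others, CACGTG (the E-box) in 5% and 7.77%, and TATAAA in 10% and 8.30%. Against the other genes with an H3K4me3 peak the members had fewer SP1 matches (72.7% in those genes) and more TATAAA matches (3.94%), and CACGTG was present in 8.92%. The 8 genes with TATAAA were RPLP0, RPL3, RPL7A, RPL10L, RPL22L1, RPS2, RPS3 and RPS28. In all but RPL7A the match began 26 to 31 bases before the start. In RPL3 and RPS3 this match lay on the strand opposite to the gene. The median GC content of the window was 60.4% for the members and 64.8% for the others.

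**Figure D1:**
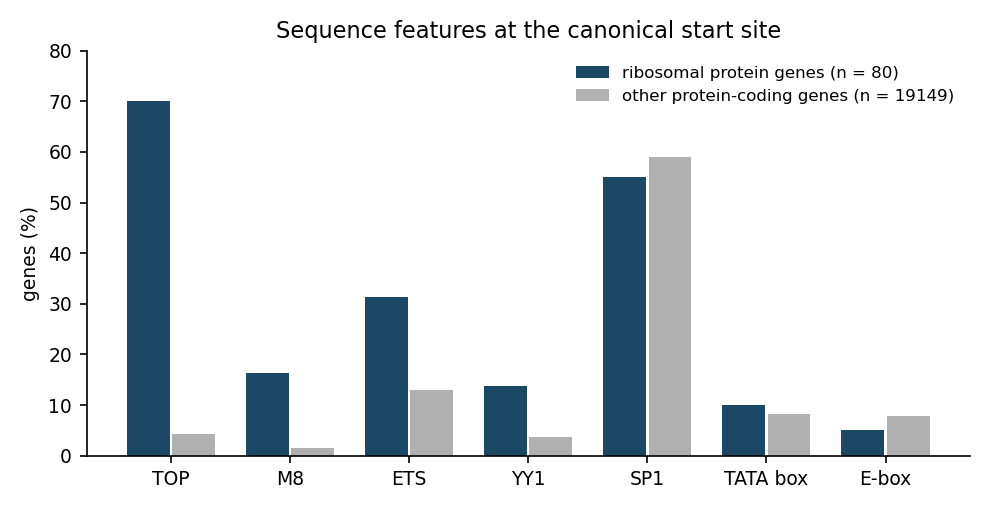
Bars give the percent of genes with each sequence feature at the canonical start, for the 80 ribosomal protein genes and the 19149 other protein-coding genes. The TOP start stands highest among the members, at 70% against 4.26%.

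Almost every ribosomal protein gene carried the marks of an active, open promoter in MDAMB231. An H3K4me3 peak was present at 77 of the 80 promoters, against 67.9% of the other protein-coding genes. An H3K27Ac peak was present at 78 promoters, against 64.1% of the others. A FAIRE peak was present at 72, or 90%, against 39.4% of the others. The 72 promoters with a FAIRE peak all had both histone peaks as well, a combination found at 36.6% of the others. Ribosomal protein genes and other genes thus stood furthest apart in open chromatin, and this held among genes with an H3K4me3 peak, where 72 of 77 members (93.5%) and 55.1% of 13004 others had a FAIRE peak.

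The subunits were alike in H3K4me3 and H3K27Ac and less so in FAIRE and, as given below, in H3K4me1. H3K4me3 peaks were found at 47 of 49 large subunit and 30 of 31 small subunit genes. FAIRE peaks were found at 46 and 26 of them, or 93.9% and 83.9%. RPS14, RPS21, RPS28 and the paralogue RPS27L had both histone peaks and no FAIRE peak. The nearest FAIRE peak lay 19486 bp from the RPS14 start, 5447 bp from RPS21, 33436 bp from RPS28 and 6645 bp from RPS27L, so none of these was a near miss of the promoter window.

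**Figure D2:**
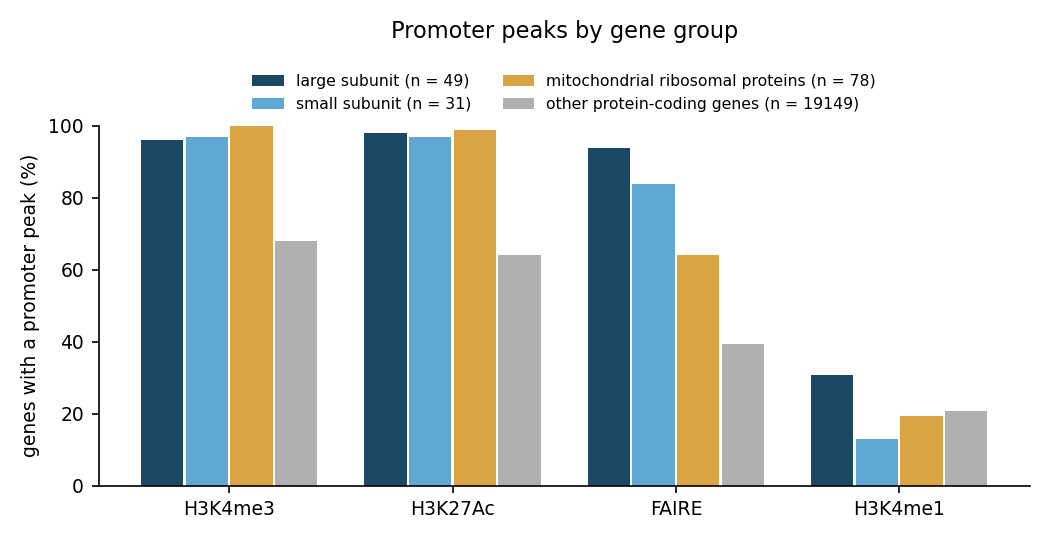
Bars give the percent of genes with a promoter peak of each list, for large and small subunit genes, mitochondrial ribosomal protein genes and all other protein-coding genes. FAIRE separates the groups most, from 93.9% in the large subunit to 39.4% in the other genes.

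The H3K4me3 peaks of the members were wide, with a median of 3722 bp (quartiles 3214 and 4316 bp) against 2983 bp for the other genes with a peak (quartiles 2451 and 3665 bp). The peak was wider than the median of the other genes at 65 of 77 members. Only 23.5% of the other genes had a peak as wide as the members' median or wider. Other genes with a length between the 10th and 90th percentile of the members had a median width of 2925 bp.

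The widest peaks all belonged to the large subunit. RPL23A, at the exit of the peptide tunnel, had an H3K4me3 peak of 7192 bp, followed by RPL28 with 6392 bp and RPL3 with 6219 bp. RPL24 and RPL7 followed with 5363 and 5152 bp. The large subunit had a median of 3984 bp and the small subunit 3501 bp, a difference smaller than the spread within either. At the other end, the paralogue RPL39L had 2035 bp, RPL17 2458 bp, RPS27 2549 bp, RPL29 2607 bp and RPS20 2636 bp, each below the median of the other genes.

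**Figure D3:**
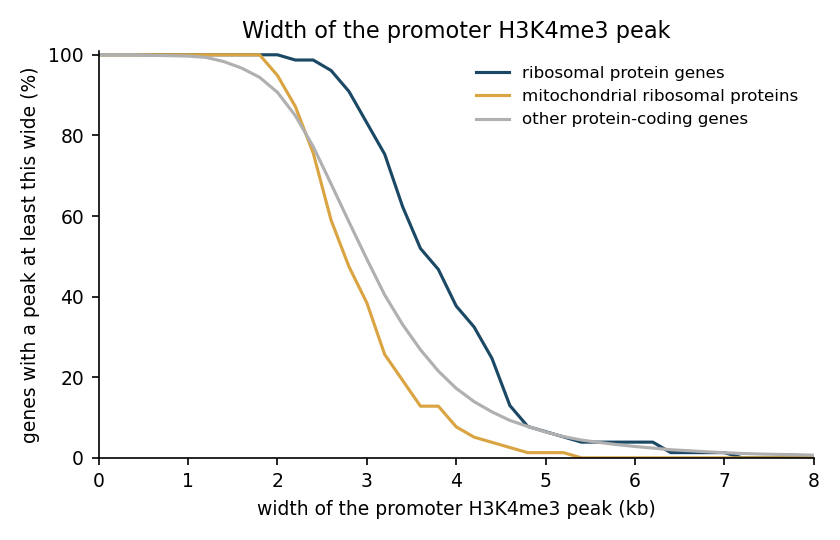
Lines give the percent of genes whose promoter H3K4me3 peak is at least as wide as the value on the x axis, in kb, among genes with a peak. The line of the ribosomal protein genes lies to the right of the others up to about 4.5 kb, with a median of 3722 bp against 2983 bp for other protein-coding genes, and meets that of the other genes near 5 kb.

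The score of a histone peak is 10 times the negative log10 of its p-value. Scores pile up at 3100, so the strongest H3K4me3 peaks could not be ranked by it. This top score was reached by 75 of 77 members and by 82.4% of the other genes with a peak. The exceptions were RPL17, beside the peptide exit, with 1782 and RPS27 with 3042.

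H3K27Ac scores were less saturated, and here the members were close to other genes. Their median was 1521, against 1367 for the others, and 44 of 78 lay above the median of the others. The top score was reached by 6 members, all of the large subunit, and by 16.1% of the others. In contrast, H3K27Ac peaks were wide, with a median of 4316 bp against 3260 bp, and 66 of 78 were wider than the median of the others. The lowest scores were 150.1 at RPLP0, 209.1 at the paralogue RPL3L, 463.0 at the paralogue RPL26L1, 491 at RPL34 and 666 at RPS19. The low score at RPLP0 came with a peak of 9914 bp, a top-scoring H3K4me3 peak of 4316 bp and one of the tallest FAIRE peaks of the family, so the score of this peak and its width point in different directions.

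FAIRE heights are the height of the read pile as the authors gave it. The median of the members was 81.6 against 69.7 for the other genes with a peak, and 45 of 72 members were above the median of the others. The tallest were RPL24 (149.8), RPL9 (145.4), RPL34 (144.9), RPLP0 (143.4) and RPL28 (132.3), all of the large subunit. The lowest were RPL31 (35.2), RPL21 (39.2), RPL12 (39.6), RPL8 (41.5) and RPL13 (42.2), and these belong to the large subunit as well. FAIRE heights within one subunit thus spanned a range of over 110 units, whereas the medians of the subunits, 80.4 and 82.2, were close.

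Across the members, wide H3K4me3 peaks went with wide H3K27Ac peaks (Spearman rho = 0.64, Pearson r = 0.61, across 77 genes). The relation of H3K4me3 width to FAIRE height was weak (rho = 0.19, r = 0.23, across 72 genes), and that to gene length was slightly negative (rho = -0.14, r = -0.11, across 77 genes). These values describe genes of 1 cell line that share the same libraries, and genes are not independent replicates.

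**Figure D4:**
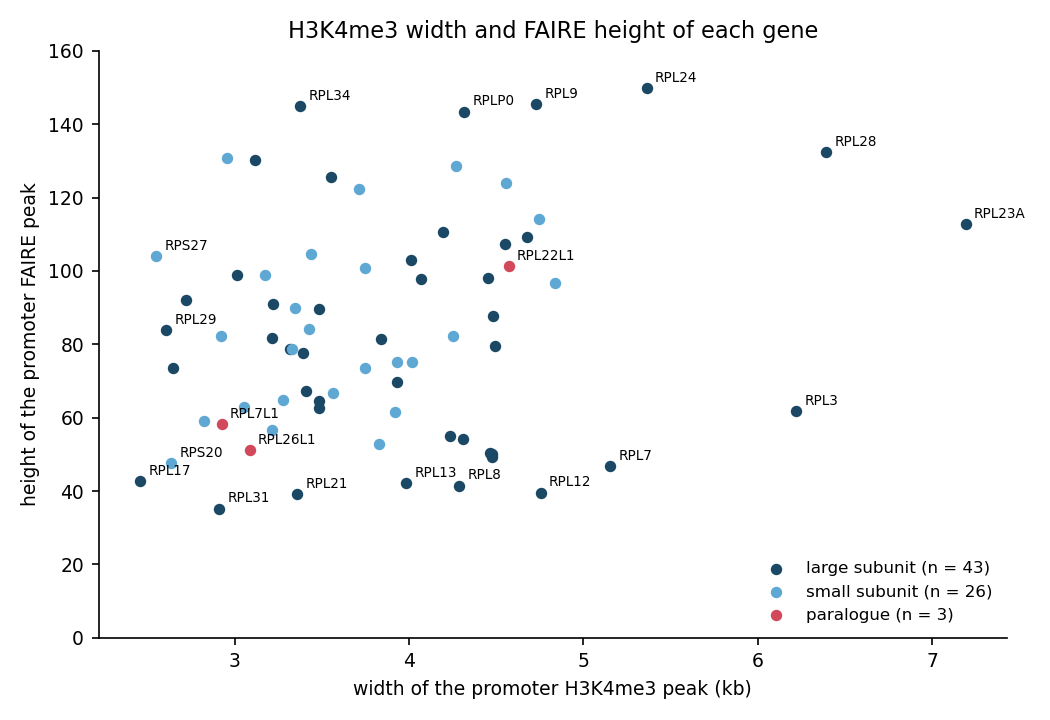
Each point is 1 of the 72 members with a FAIRE peak, placed by the width of its promoter H3K4me3 peak in kb and the height of its promoter FAIRE peak. RPL23A, RPL28 and RPL3 have the widest H3K4me3 peaks, and RPL24 has the tallest FAIRE peak.

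By their medians, the extra width of the H3K4me3 peaks lay downstream of the start. From the canonical start, the peak reached a median of 1276 bp upstream in the members and 1214 bp in the other genes, but 2346 bp downstream against 1648 bp. It reached further downstream than upstream in 71 of 77 members and in 74.5% of the others. The H3K27Ac peak did the same, with 2612 bp downstream against 1658 bp, and 1422 bp upstream against 1380 bp. The H3K4me3 peak of RPL3 reached 4668 bp downstream, the furthest of all members, and that of RPS3, which lines the mRNA entry channel, 3410 bp. Of the 5 widest peaks, however, 3 reached further upstream than downstream, with 4096 and 3095 bp at RPL23A, 3294 and 3097 bp at RPL28, and 3575 and 1576 bp at RPL7.

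The canonical start itself lay in a FAIRE peak in every member that had one, 72 of 77 with an H3K4me3 peak, whereas 37.4% of the other genes with an H3K4me3 peak had the start in a FAIRE peak. The centre of the FAIRE peak was upstream of the start in 59 of the 72 members and in 82.5% of the others, at a median of -88.5 and -148 bp. The open region of these genes therefore lay over the start and just upstream of it, inside a histone-marked region that extended mostly downstream.

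**Figure D5:**
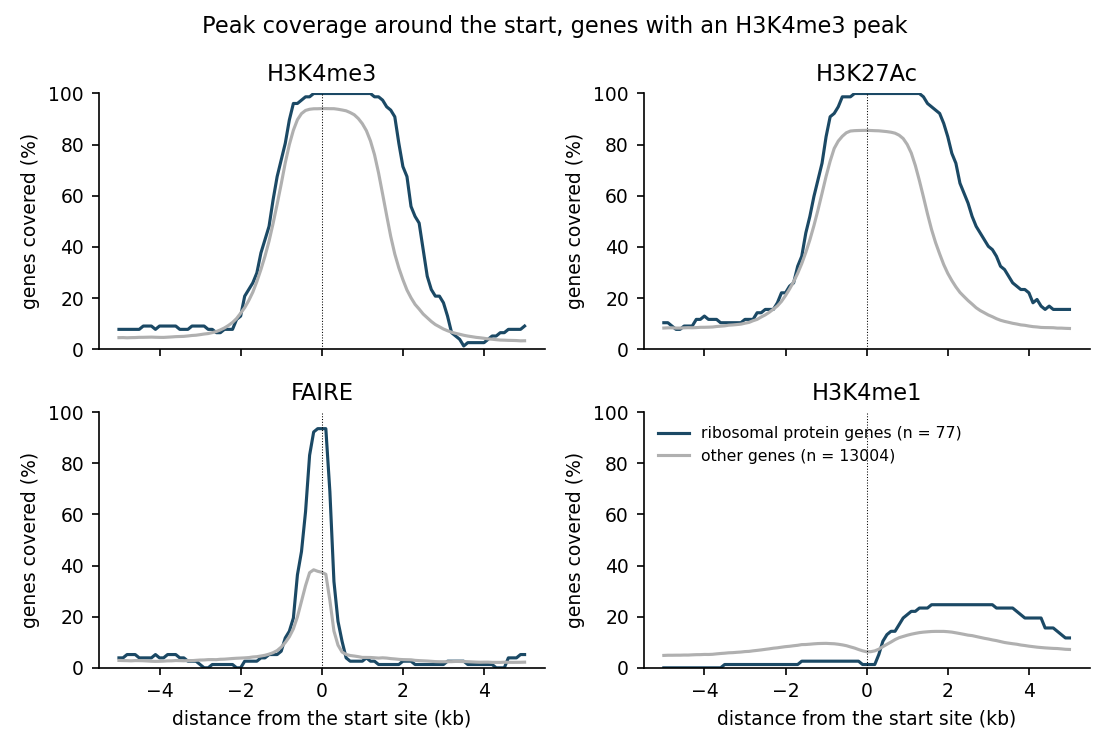
Lines give the percent of genes covered by a peak at each distance from the canonical start, in kb with transcription to the right, for the 77 members and the 13004 other genes with an H3K4me3 peak. At 2 kb downstream, 71.4% of the members and 27.2% of the others were covered by H3K4me3, and at the start 93.5% and 37.4% were covered by FAIRE.

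An H3K4me1 peak was present at 19 of 80 promoters, against 20.6% of the others and 27.3% of the others with an H3K4me3 peak. With the canonical start only, the shares were 21.2% and 12.7% of all others, with a start site inside the peak 20% and 14%, and with stricter peaks 7.5% and 11.5%. The reported share of the members, 23.8%, was thus close to that of all other genes and below that of the others with an H3K4me3 peak. Against all other genes it was higher with these choices of start site and lower with stricter peaks. No direction is read from it. By subunit, the 19 were 15 of 49 large subunit and 4 of 31 small subunit genes. The highest scores were at RPL35A (401), RPL9 (195), RPL34 (178), RPL37 (149) and RPS3 (138). Of the 19 peaks, 17 lay downstream of the canonical start, with the first edge 212 to 1266 bp from it (median 462 bp), 1 lay upstream, at RPL15, and 1 covered the start, at RPSA. Within 1 kb of the canonical start, 88.2% of the members' H3K4me1 peaks were downstream and did not cover it, against 44.6% of the peaks at other genes with an H3K4me3 peak. All 19 touched an H3K4me3 peak, and 98.7% of those at the other genes did so as well. RPL5 and RPL11, which bind MDM2 when ribosome assembly is disturbed, were both among the 19, with scores of 78.9 and 95.5.

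The genes are short, and H3K4me3 covered much of their length. The median gene length was 5548 bp, against 27783 bp for the others, and the median share of the gene under H3K4me3 was 44.6%, against 3.11%. Other genes in the length range of the members and with an H3K4me3 peak had 17.7%, but they were longer, with a median of 11680 bp, so the lengths are not matched. The whole gene was covered at 6 members, RPL10A, RPL41, RPS15, RPS21, RPS27 and RPS28, or 7.5%, against 1.11% of the others. Among the lowest were long annotated genes, with 2.67% of RPL37A (80356 bp) and 7.30% of RPS9 (48186 bp) covered.

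Genes with known further functions mostly followed the pattern of the family, with exceptions in FAIRE and in H3K27Ac score. RPLP1 and RPLP2 had H3K4me3 peaks of 3486 and 4467 bp and FAIRE heights of 64.4 and 50.4, both below that of RPLP0. RPSA, a small subunit protein also known as the laminin receptor, had a width of 3344 bp and a height of 89.8. RPL13A, which also takes part in translational silencing by the GAIT complex, had 4009 bp and 103.1, and RPL22, an RNA-binding protein needed in T cell development, had 3012 bp and 99.0. RPS6 had 4019 bp and 75.1, and RPS27A, made as a fusion with ubiquitin, had 3565 bp and 66.6. RPS19 combined a FAIRE height of 104.7 with its low H3K27Ac score, and RPS14 combined an H3K27Ac score of 2691 with no FAIRE peak.

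The paralogues differed among themselves in which peaks they had. RPL22L1 resembled the main family, with a TOP start, an H3K4me3 peak of 4571 bp, a FAIRE peak of height 101.4 and an H3K4me1 peak. RPL7L1 and RPL26L1 had H3K4me3 peaks of 2927 and 3087 bp and low FAIRE peaks of 58.3 and 51.2. RPL39L and RPS27L, the latter a p53 target, had H3K4me3 and H3K27Ac peaks and no FAIRE peak. RPL3L, the form of heart and skeletal muscle, had only an H3K27Ac peak, and its promoter overlaps that of another coding gene, NDUFB10. RPL10L, the intronless form used in the testis, had no peak of any list, and its nearest H3K4me3 peak was 59254 bp away. FAIRE peaks were thus present at 3 of 7 paralogues and at 69 of the 73 other members.

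The start sites of 4 paralogues are shown to set beside those above. The stretches are RPL22L1 at chr3:170587970-170588029 (minus strand), RPL39L at chr3:186857270-186857329 (minus strand), RPS27L at chr15:63449662-63449721 (minus strand) and RPL10L at chr14:47120970-47121029 (minus strand), with the run of pyrimidines from the start again in capitals. Only RPL22L1 has such a run.
RPL22L1: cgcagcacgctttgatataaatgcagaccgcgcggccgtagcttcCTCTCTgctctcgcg
RPL39L: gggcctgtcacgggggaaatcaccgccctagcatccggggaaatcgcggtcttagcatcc
RPS27L: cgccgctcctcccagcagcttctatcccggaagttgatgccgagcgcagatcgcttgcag
RPL10L: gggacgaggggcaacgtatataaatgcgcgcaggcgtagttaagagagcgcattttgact

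A coding gene on the opposite strand started within 1 kb upstream of 13 members, such as MED22 at RPL7A and LIAS at RPL9, and of 9.48% of the other genes. These 13 members had a median H3K4me3 width of 4483 bp, against 3460 bp for the remaining members. Their peaks reached 1899 bp upstream, against 1200 bp, and 2557 bp downstream, against 2287 bp. In the members without such a neighbour the downstream reach was thus 2287 bp, against 1648 bp in the other genes. Neighbours were taken by canonical starts only, and 16 of these 67 members still shared a promoter window with another coding gene. The part of neighbours in the reach was not tested.

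Small nucleolar RNAs, which guide the modification of ribosomal RNA, are often encoded in introns of these genes. They were annotated in 27 members, 58 in all, and in 1.94% of the other genes. All 27 host genes had H3K4me3, H3K27Ac and FAIRE peaks, with a median H3K4me3 width of 3922 bp. The 53 members without one had 3460 bp, and FAIRE peaks at 45 of them.

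The TOP start was set beside the peaks. FAIRE peaks were present at 54 of 56 members with a TOP start and at 18 of 24 without one, a group that holds 6 of the 7 paralogues. Among the other genes with an H3K4me3 peak, FAIRE peaks were present at 57.5% of 636 genes with a TOP start and at 55.0% of 12368 without one. The H3K4me3 width of those groups was 3029 and 2982 bp, so outside the family a TOP start went with little difference in either measure.

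Other genes of the translation machinery showed parts of the same pattern. The 8 ribosomal genes listed from outside the naming rule, among them RPS4X, RPL10, FAU and RACK1, all had H3K4me3, H3K27Ac and FAIRE peaks, with a median H3K4me3 width of 4158 bp. RACK1 had the widest, 9343 bp. The 14 translation factors and other mRNAs known for a TOP start all had both histone peaks and 12 had a FAIRE peak, the exceptions being EEF1D and EEF2. Their median width was 4101 bp, with 9719 bp at EEF1A1, the elongation factor that delivers aminoacyl-tRNA. H3K4me1 peaks were present at 9 of these 14.

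Genes for making ribosomes and for the mitochondrial ribosome stood closer to other genes in FAIRE. The 14 assembly genes, among them NCL, FBL and UBTF, all had both histone peaks and 8 had a FAIRE peak, with a median H3K4me3 width of 3605 bp. The 78 mitochondrial ribosomal protein genes had H3K4me3 peaks at all 78 promoters, H3K27Ac at 77 and FAIRE at 50 (64.1%). Their median H3K4me3 width, 2756 bp, was below that of other protein-coding genes and further below the 3722 bp of the cytosolic ribosomal protein genes. The cytosolic and mitochondrial groups were thus alike in carrying H3K4me3 and differed in its width and in FAIRE.

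The family has left many copies in the genome. GENCODE lists 1419 pseudogenes named after the members, 1400 of them processed (copied from mRNA), and RPL21 has the most, 130. Widened start sites met an H3K4me3 peak in 36 of the 1419 (2.54%), H3K27Ac in 78 (5.50%), FAIRE in 47 (3.31%) and H3K4me1 in 57 (4.02%). Of 1341 pseudogenes more than 2 kb from any coding start, 15 had an H3K4me3 peak. Among these 15, RPL31P30, RPS5P3 and RPS18P5 reached the top score and lay 2552, 2221 and 2106 bp from a coding start. RPS23P10 lay 11516 bp from one and had a score of 2711.5, and RPL7AP12 lay 95050 bp from one and had a score of 1260. Few copies of the ribosomal protein genes thus had a called peak. Poorly mapped reads were left out by the authors, what this did to counts at near-identical copies was not tested, and pseudogenes of other families were not counted.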

How the data were processed

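The authors used BWA and GRCh37 (hg19), left out duplicate and poorly mapped reads, combined the replicates of each assay and called peaks against input. The submitters' processing notes also name TopHat, and HOMER, which the study used to compare and annotate peaks. The score of a histone peak is the authors' own, from MACS. FAIRE heights are the signal or coverage of the pile of reads as the authors deposited it, from FindPeaks, with no scaling to depth stated. The deposited lists do not state read depth, which limits which weak peaks could be called.

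The 4 lists were read as BED intervals and overlapped with GENCODE version 44 start sites mapped to GRCh37, with python 3.11.15, numpy 2.4.6 and pandas 2.3.3. Overlap counting was tested on simulated intervals against bedtools 2.31.1. The widest H3K4me3 peak and the highest score or height at each promoter were used. Distances were taken from the Ensembl canonical start, or the 5′ end of 251 other genes without one.

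The members and lists were chosen with earlier results of these data known. Genes could be named if they lacked an H3K4me3, H3K27Ac or FAIRE peak, were among the 5 at either end of H3K4me3 width or FAIRE height, the 5 lowest in H3K27Ac score or the 5 highest in H3K4me1 score, or stood on a list of functions and paralogues. Other names were chosen after their values were seen. No test was made, because each assay has 1 list and genes are not replicates. The alternatives were other promoter windows, stricter peaks, other start sites, a shorter motif window, and the members without the paralogues or without shared promoters.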

Additional observations from a re-analysis of the deposited data

How the results depend on the processing

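The counts and medians were recomputed with start sites widened by 500 bp or 2 kb, with the canonical start only, with a start site inside the peak, with stricter peaks, without the paralogues and without genes that share a promoter. Summed peak widths, the canonical transcript in place of the gene, the highest FAIRE peak and a motif window from 100 bases before the start were also used. Of 70 recomputed values, 62 stayed within the 95% interval of the reported value, which covers counting error over genes only, and 8 did not. The 62 include 7 medians of the H3K4me3 score, which could hardly move because that score is saturated. With histone scores of at least 100 and FAIRE heights of at least the median of the list, the share of members with a FAIRE peak was 67.5% (24.8% of the other genes), that with an H3K4me1 peak 7.5% (11.5% of the others), and the median FAIRE height 91.5 (87.5 for the others). These follow from dropping weaker peaks, and under the stricter peaks the members fell below the other genes in H3K4me1. With any annotated start site, a TOP start was found in 86.2% of the members (16.1% of the others), since more start sites were searched. With any base of the pseudogene in place of its widened start, the shares were 1.62% for H3K4me3, 3.88% for H3K27Ac, 1.76% for FAIRE and 2.75% for H3K4me1. No paired analysis was possible because a single list stands for both samples of an assay, and no replicate could be left out. Without replicate lists, the absence of a peak says only that none was called.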
